A study of Mus musculus with 3 samples.

Results

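The Bcl2 family genes examined here are 10 of the 32285 genes counted in each library: Bcl2, Bcl2l1, Mcl1 and Bcl2l2, which encode anti-apoptotic proteins, Bax and Bak1, which encode the pore-forming effectors, and Bcl2l11, Bbc3, Bad and Pmaip1, which encode BH3-only proteins. They were chosen by symbol because Bad is a known substrate of the Pim kinases, and all 10 were found once in the gene list. They were measured in 3 droplet libraries of lung endothelial cells (ECs) sorted as Pecam1 positive and Ptprc negative, which address how the lung endothelium responds to arriving tumor cells. All mice were wild-type male C57BL/6 aged 8 to 10 weeks. Control mice received 100 µl PBS into the tail vein and were taken at 6 h, and the other mice received 200000 B16-F10 cells, a pigmented mouse melanoma line, in the same volume and were taken at 6 h or 30 h. Each library is 1 pool of mice, 2 per treatment by the labels and 3 by the study's methods. The 6 h library also received sorted melanoma cells, and the 30 h library has no PBS library of its own time, so it is set against the 6 h control throughout.

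Bcl2 family proteins decide whether the outer mitochondrial membrane stays intact. Bax and Bak form the pores that release cytochrome c and start the caspases, the anti-apoptotic proteins hold them back, and the BH3-only proteins bind the anti-apoptotic proteins and free the effectors. Mcl1 encodes a short-lived protein, Bcl2l1 encodes Bcl-xL, Bcl2l11 encodes Bim, which Foxo factors can induce, and Bbc3 (Puma) and Pmaip1 (Noxa) are classic p53 targets. Bad is held inactive by 14-3-3 proteins once kinases of the Akt, Rsk and Pim families have phosphorylated it, so its activity is not read from its mRNA.

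Barcodes were kept with 1000 to 5000 detected genes, under 20% mitochondrial UMIs and at least 2 UMIs of Pecam1 and Cdh5 together. UMIs, short random tags, count each captured RNA molecule once. There were 11231 such endothelial barcodes in control, 10583 at 6 h and 9278 at 30 h, with median depths of 7782, 8033 and 8675.5 UMIs. The libraries totalled 140601123, 132566934 and 124085451 UMIs, and 22 to 38 endothelial barcodes were shared between any 2 of them. Levels are UMIs of a gene per 1000000 UMIs of the same barcodes (CPM), with exact 95% Poisson intervals, and ratios are log2 ratios of CPM with exact conditional binomial intervals. Each group has 1 library, hence no replicate and no test, and all intervals cover counting error only. A gene is called different when it is at least 25% higher or 20% lower on the CPM + 1 scale, a log2 ratio of 0.32 in either direction, among the 10175 genes whose mean reached 5 CPM. All 10 members passed that filter.

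Over all endothelial barcodes, Bcl2l1 was lower at 6 h than in the control library and was back near the control level at 30 h. Mcl1 was higher at 6 h by less than the call. Bcl2l11 and Pmaip1 were lower at 30 h than in either other library, and Bcl2 was higher at 30 h than in the control library.

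At 6 h, 1 of 10 members was called against control, Bcl2l1 as lower, beside 12.4% of all tested genes called in either direction and 5.88% called lower. At 30 h against control 3 members were called, Bcl2 as higher and Bcl2l11 and Pmaip1 as lower, beside 31.3% of tested genes (12.2% higher and 19.1% lower). A call at 1.5-fold left 1 of them, Bcl2l11, beside 8.63% of tested genes. At 30 h against 6 h 3 were called, Bcl2l1 as higher and Bcl2l11 and Pmaip1 as lower, beside 29.3% (12.7% higher and 16.6% lower). With 10 members, 1 gene is 10% of them, and these shares are near those of all genes. The median log2 ratio of the 10 members on the CPM + 1 scale was 0.16 at 6 h against -0.01 over all tested genes, -0.02 at 30 h against -0.07, and -0.17 between 30 h and 6 h against -0.07.

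**Figure D1:**
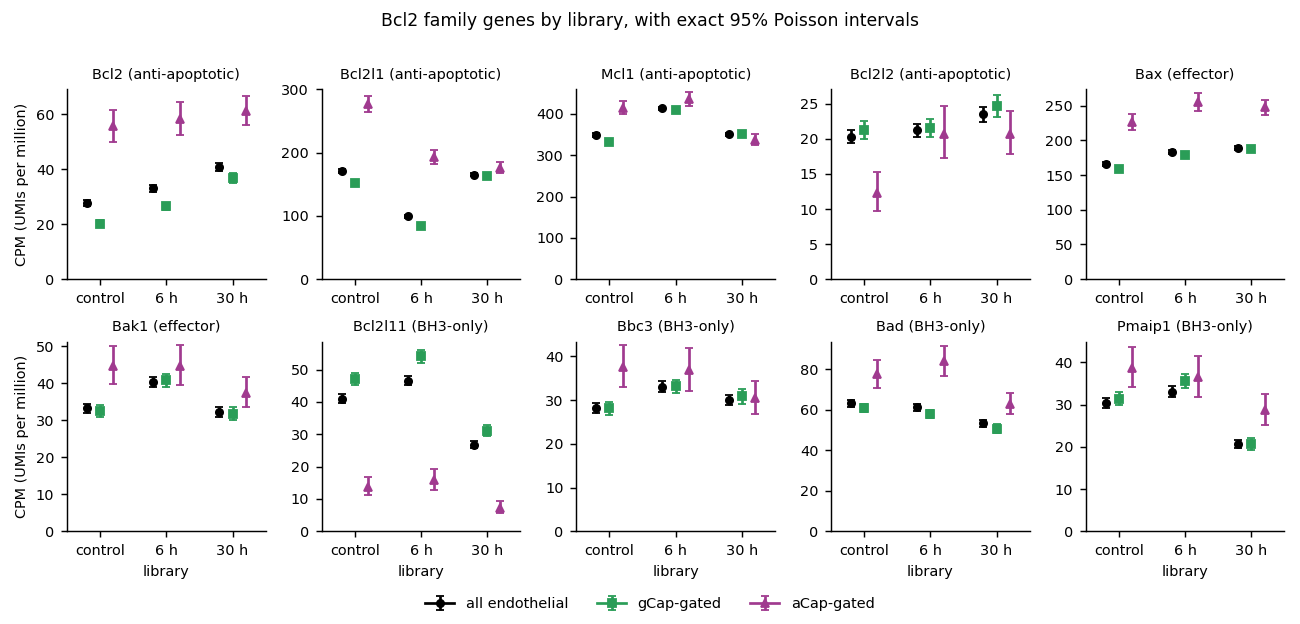
Level of each member in CPM (vertical axes from 0) in the control, 6 h and 30 h libraries, over all endothelial barcodes (black), gCap-gated barcodes (green) and aCap-gated barcodes (purple), with exact 95% Poisson intervals as bars. Over all endothelial barcodes Bcl2l1 is lowest at 6 h (99.1 CPM) and at 165 CPM at 30 h. The aCap-gated level is 277 CPM in control and 176 CPM at 30 h.

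Bcl2l1 lies on the reverse strand of chromosome 2 (GRCm38, 152780668 to 152831728) and overlaps no other annotated gene. Its level was 171 CPM in control (168 to 174), 99.1 CPM at 6 h (97.0 to 101) and 165 CPM at 30 h (163 to 168). The 6 h value is the low one and its interval is far from the other 2, which lie within 0.05 log2 units of each other. The log2 ratio of 6 h to control was -0.79 (-0.83 to -0.75), or 42.1% lower, and only 34 of the 10175 tested genes had a lower ratio. From 6 h to 30 h the log2 ratio was 0.74 (0.70 to 0.78).

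The 250 bases before 3 RefSeq start sites are shown. One set belongs to Bcl2l1, whose 6 h ratio is the farthest from 0 among the members. The others belong to the BH3-only genes Bcl2l11 and Bbc3 and were picked because they hold the letters of a Foxo motif. They are RefSeq promoter sequences of GRCm38.p6, for Bcl2l1 at chr2:152831729-152831978 on the reverse strand (the outermost of 3 starts), for Bcl2l11 at chr2:128125788-128126037 on the forward strand (the outer of 2 starts), and for Bbc3 at chr7:16310011-16310260 on the forward strand (1 of 3 starts). None of the 3 windows overlaps an annotated exon, and capitals mark the motif matches.
Bcl2l1: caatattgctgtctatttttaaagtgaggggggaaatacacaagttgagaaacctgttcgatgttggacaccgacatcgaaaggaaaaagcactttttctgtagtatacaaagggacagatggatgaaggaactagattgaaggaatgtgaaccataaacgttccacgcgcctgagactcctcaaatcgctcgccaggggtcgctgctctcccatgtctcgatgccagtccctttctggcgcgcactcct
Bcl2l11: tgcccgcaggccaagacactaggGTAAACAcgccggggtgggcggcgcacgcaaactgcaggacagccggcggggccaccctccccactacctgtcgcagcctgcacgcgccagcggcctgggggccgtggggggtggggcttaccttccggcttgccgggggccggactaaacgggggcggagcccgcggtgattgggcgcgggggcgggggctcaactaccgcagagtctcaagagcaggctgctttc
Bbc3: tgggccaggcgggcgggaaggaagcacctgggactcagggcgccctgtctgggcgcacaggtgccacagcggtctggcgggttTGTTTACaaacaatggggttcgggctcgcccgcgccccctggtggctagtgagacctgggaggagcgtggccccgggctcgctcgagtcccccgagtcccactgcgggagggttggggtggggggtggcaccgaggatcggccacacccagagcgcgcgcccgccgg

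Both strands of the 15 windows of the 9 members in the promoter table were searched for 6 motifs. The letters were TTCNNNGAA for STAT factors, TGACTCA for AP-1, GTAAACA for Foxo factors, AGAACA for a glucocorticoid receptor half-site, TGACGTCA for CRE and GAANNTTC for heat shock factors. No match overlapped another. The Foxo letters stand 227 bases before a Bcl2l11 start and 167 bases before a Bbc3 start, and 3.17% of all 32851 promoter windows hold them. The other windows of Bcl2l11 and Bbc3 hold none of the 6 motifs. The heat shock factor letters stand 30 bases before a Bad start, against 6.69% of all windows. The other motifs were found in no member's window, and 7.02% of all windows hold the STAT letters, 4.46% AP-1, 16.1% the glucocorticoid half-site and 1.55% CRE. A match is a description of the letters and not of a bound site.

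Mcl1 lies on the forward strand of chromosome 3 (95658788 to 95663176). It measured 349 CPM in control (345 to 353), 413 CPM at 6 h (409 to 418) and 350 CPM at 30 h (346 to 355). The 6 h library stands above the other 2, whose intervals overlap. The log2 ratio of 6 h to control was 0.24 (0.22 to 0.27) and that of 30 h to control 0.01 (-0.02 to 0.03), so at 6 h Mcl1 differed in the opposite direction to Bcl2l1, although not past the call.

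Bcl2 (chromosome 1, 106538178 to 106714274, reverse strand) measured 27.6 CPM in control (26.5 to 28.7), 33.0 CPM at 6 h (31.8 to 34.2) and 40.8 CPM at 30 h (39.4 to 42.2). The 3 intervals do not overlap, with control lowest and 30 h highest. The log2 ratio to control was 0.26 (0.18 to 0.34) at 6 h and 0.57 (0.49 to 0.64) at 30 h. Only 5.20% of the gene's span is exonic, and whether intronic reads were counted is not given in the sources used here.

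Bcl2l2, which encodes Bcl-w (chromosome 14, 54883377 to 54888234, forward strand), measured 20.3, 21.2 and 23.5 CPM. Its log2 ratio to control was 0.06 (-0.03 to 0.16) at 6 h and 0.21 (0.12 to 0.30) at 30 h. The annotation has a read-through transcript, Gm20521, over the same locus and strand that is not in the gene list. Any of its reads that fall within Bcl2l2 could not be told apart, and their number was not measured. The same holds for Bax, which overlaps Gm45808, and for Bcl2, which overlaps Mir3473f and Gm37053, all on the same strand and not in the gene list. The sum of the 4 anti-apoptotic genes was 568, 567 and 580 CPM, and the log2 ratio of 6 h to control was -0.003 (-0.021 to 0.015). Over all endothelial barcodes the summed levels at 6 h and in control thus differed by less than their counting error, with Bcl2l1 lower and Mcl1 higher within the sum.

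Neither effector was called over all endothelial barcodes. Bax (chromosome 7, 45461697 to 45466898, reverse strand) measured 166, 184 and 189 CPM in the same order of libraries, with log2 ratios to control of 0.15 (0.11 to 0.18) at 6 h and 0.19 (0.15 to 0.22) at 30 h. The control library is the low one and its interval does not overlap the others. Bak1 (chromosome 17, 27019810 to 27029009, reverse strand) was highest at 6 h, with 33.2, 40.2 and 32.2 CPM, and its log2 ratio was 0.28 at 6 h against control (0.21 to 0.35) and -0.04 at 30 h (-0.12 to 0.03).

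Bcl2l11 (chromosome 2, 128126038 to 128162547, forward strand) measured 41.0 CPM in control (39.7 to 42.4), 46.6 CPM at 6 h (45.2 to 48.0) and 26.8 CPM at 30 h (25.7 to 27.9). The 30 h library stands below both others. The log2 ratio was 0.18 at 6 h against control (0.12 to 0.25), -0.62 at 30 h against control (-0.69 to -0.54) and -0.80 at 30 h against 6 h (-0.88 to -0.72). Pmaip1 (chromosome 18, 66458533 to 66465565, forward strand) had the same order of libraries, with 30.3 CPM in control (29.2 to 31.5), 33.1 CPM at 6 h (31.9 to 34.3) and 20.7 CPM at 30 h (19.7 to 21.7). Its log2 ratio at 30 h was -0.55 against control (-0.64 to -0.47) and -0.68 against 6 h (-0.77 to -0.59).

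Bad (chromosome 19, 6941861 to 6951899, forward strand) measured 63.1, 61.1 and 53.2 CPM. At 6 h its interval overlapped that of the control library, with a log2 ratio of -0.05 (-0.10 to 0.01), and at 30 h the log2 ratio was -0.24 (-0.30 to -0.19), short of the call. Bbc3 (chromosome 7, 16308393 to 16318205, forward strand) measured 28.2, 33.1 and 30.0 CPM, with log2 ratios to control of 0.23 (0.15 to 0.31) at 6 h and 0.09 (0.01 to 0.17) at 30 h. Summed over the 4 BH3-only genes the levels were 163, 174 and 131 CPM, and the log2 ratio at 30 h was -0.32 against control (-0.35 to -0.28) and -0.41 against 6 h (-0.45 to -0.38). Bcl2, Bak1 and Bad each overlap a counted gene on the opposite strand (D630008O14Rik, Ggnbp1 and Gpr137), and whether counting used the strand is not given in the sources used here.

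**Figure D2:**
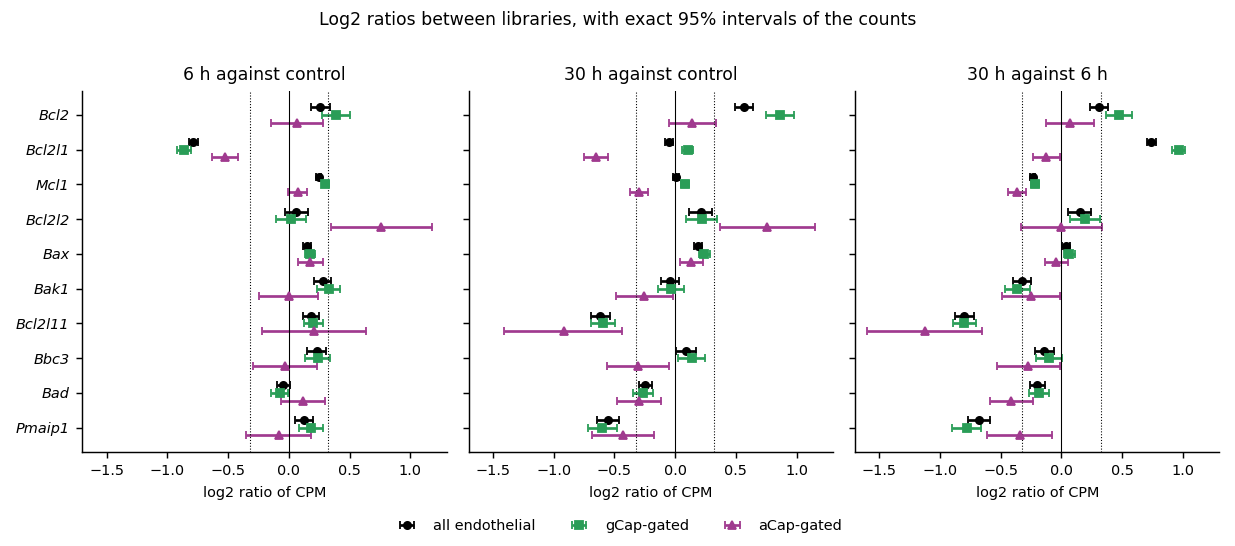
Log2 ratio of CPM (horizontal axes) of each member for 6 h against control, 30 h against control and 30 h against 6 h, over all endothelial (black), gCap-gated (green) and aCap-gated barcodes (purple), with exact 95% counting intervals as bars and dotted lines at the call. At 6 h Bcl2l1 lies left of the line in all 3 sets of barcodes, and at 30 h Bcl2l11 and Pmaip1 do.

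Members also differed between the endothelial classes. Classes were gated on 4 marker genes each, none of them a member. General capillary cells (gCap) were gated on Gpihbp1, Plvap, Kit and Glp1r, aerocytes (aCap, large capillary cells that line the gas exchange surface) on Ednrb, Fibin, Tbx2 and Chst1. A barcode entered a class with at least 3 UMIs of its markers and of no other class, which gave 6959, 6898 and 5192 gCap-gated and 737, 677 and 843 aCap-gated barcodes in the control, 6 h and 30 h libraries. Car4, an aerocyte gene that the gate did not use, measured 2342, 1960 and 3325 CPM in aCap-gated and 208, 180 and 238 CPM in gCap-gated barcodes. For artery, vein and lymphatic (LEC) markers this gate left under 50 barcodes a library, so they were gated at 10 UMIs with gCap markers not used, a limit set after the barcode counts were seen. That gave 135 to 187 artery-gated and 466 to 627 vein-gated barcodes per library. LEC-gated barcodes numbered 60, 43 and 51, and for them levels alone are given.

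In gCap-gated barcodes Bcl2l1 measured 152 CPM in control (148 to 155), 83.4 CPM at 6 h (80.9 to 85.9) and 163 CPM at 30 h (159 to 167). In aCap-gated barcodes it measured 277 CPM in control (264 to 290), 193 CPM at 6 h (182 to 204) and 176 CPM at 30 h (168 to 186). The gCap level was low at 6 h and high again at 30 h, and the aCap level was below its own control at both times. Bcl2l1 was still higher in aCap-gated than in gCap-gated barcodes in 3 of 3 libraries, with log2 ratios from 0.12 to 1.21. The log2 ratio to control in gCap-gated barcodes was -0.86 (-0.92 to -0.81) at 6 h and 0.10 (0.05 to 0.15) at 30 h, and in aCap-gated barcodes -0.52 (-0.63 to -0.42) and -0.65 (-0.75 to -0.55). The difference between the classes, aCap minus gCap, was 0.34 (0.22 to 0.46) at 6 h and -0.75 (-0.86 to -0.64) at 30 h, intervals that again cover counting error only. With aCap barcodes gated at 10 UMIs the aCap ratios were -0.52 at 6 h and -0.57 at 30 h.

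The larger vessels followed the gCap time course of Bcl2l1. Vein-gated barcodes held 132, 75.3 and 161 CPM, with a log2 ratio of -0.81 at 6 h against control (-0.99 to -0.64). Artery-gated barcodes held 149, 99.7 and 178 CPM, with -0.58 (-0.90 to -0.26). LEC-gated barcodes held 122 CPM in control (93.4 to 158), 98.8 (67.6 to 139) at 6 h and 202 (164 to 245) at 30 h, where only the 30 h interval stands apart. Bcl2l1 was called lower at 6 h in all 4 classes compared, beside 6.68% of tested genes called lower in gCap-gated, 6.89% in aCap-gated, 18.0% in artery-gated and 11.2% in vein-gated barcodes. In gCap-gated barcodes 2 members were called at 6 h (Bcl2 higher, Bcl2l1 lower) beside 14.4% of tested genes, 3 at 30 h against control (Bcl2 higher, Bcl2l11 and Pmaip1 lower) beside 32.4%, and 5 at 30 h against 6 h (Bcl2 and Bcl2l1 higher, Bak1, Bcl2l11 and Pmaip1 lower) beside 29.6%. In aCap-gated barcodes 2 were called at 6 h (Bcl2l2 higher, Bcl2l1 lower) beside 15.7%, 4 at 30 h against control (Bcl2l2 higher, Bcl2l1, Bcl2l11 and Pmaip1 lower) beside 42.2%, and 4 at 30 h against 6 h (Mcl1, Bcl2l11, Bad and Pmaip1, all lower) beside 42.1%.

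Bcl2 was higher in aCap-gated than in gCap-gated barcodes of each library, with 55.5, 58.2 and 61.2 CPM against 20.2, 26.4 and 36.7 CPM. The aCap to gCap log2 ratio lay between 0.74 and 1.46, with its interval above 0 in 3 of 3 libraries. In gCap-gated barcodes its log2 ratios to control were 0.39 (0.27 to 0.51) at 6 h and 0.86 (0.75 to 0.98) at 30 h, whereas in aCap-gated barcodes they were 0.07 (-0.15 to 0.28) and 0.14 (-0.05 to 0.34). The difference at 30 h, aCap minus gCap, was -0.72 (-0.95 to -0.50). Vein-gated barcodes held Bcl2 at 21.2, 31.9 and 27.3 CPM, with log2 ratios to control of 0.59 (0.26 to 0.93) at 6 h and 0.37 (0.03 to 0.70) at 30 h, and in artery-gated barcodes both intervals included 0. The 6 h difference of vein minus gCap included 0 (-0.14 to 0.55), and the 30 h one was -0.50 (-0.84 to -0.15).

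Bcl2l11 had the reverse class pattern. In gCap-gated barcodes it measured 47.0, 54.1 and 31.1 CPM, and in aCap-gated barcodes 13.8, 15.9 and 7.30 CPM, from 91, 98 and 63 UMIs. The aCap to gCap log2 ratio lay between -2.09 and -1.77 and its interval was below 0 in 3 of 3 libraries, and with aCap barcodes gated at 10 UMIs it lay between -1.61 and -1.41. At 30 h against control the log2 ratio was -0.60 in gCap-gated barcodes (-0.70 to -0.50) and -0.92 in aCap-gated barcodes (-1.41 to -0.44), and it was also lower in artery-gated (-0.53, -1.02 to -0.05) and vein-gated barcodes (-0.35, -0.64 to -0.05). Free RNA in empty droplets held Bcl2l11 at 15.96, 18.7 and 18.6 CPM. By the epithelial genes Sftpc, Sftpb, Scgb1a1 and Ager alone, free RNA made up an estimated 4.38%, 7.68% and 5.79% of endothelial UMIs. Other gene sets were not used for the estimate, and the part of free RNA in the aCap level was not tested.

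Pmaip1 was low in the larger vessels. It measured 31.4, 35.6 and 20.7 CPM in gCap-gated barcodes, 38.7, 36.5 and 28.7 in aCap-gated, 14.6, 7.79 and 5.31 in artery-gated and 13.4, 13.7 and 11.1 in vein-gated barcodes. The artery to gCap log2 ratio lay between -2.19 and -1.10 and the vein to gCap log2 ratio between -1.38 and -0.90, with intervals below 0 in 3 of 3 libraries for both. At 30 h against control Pmaip1 was called lower in gCap-gated (-0.60, -0.72 to -0.48) and aCap-gated barcodes (-0.43, -0.69 to -0.17), beside 19.8% and 26.1% of tested genes called lower. In artery-gated barcodes the log2 ratio was -1.46 (-2.70 to -0.33), from 23 UMIs in control and 10 at 30 h, and in vein-gated barcodes it was -0.27, with an interval that included 0 (-0.75 to 0.21).

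**Figure D3:**
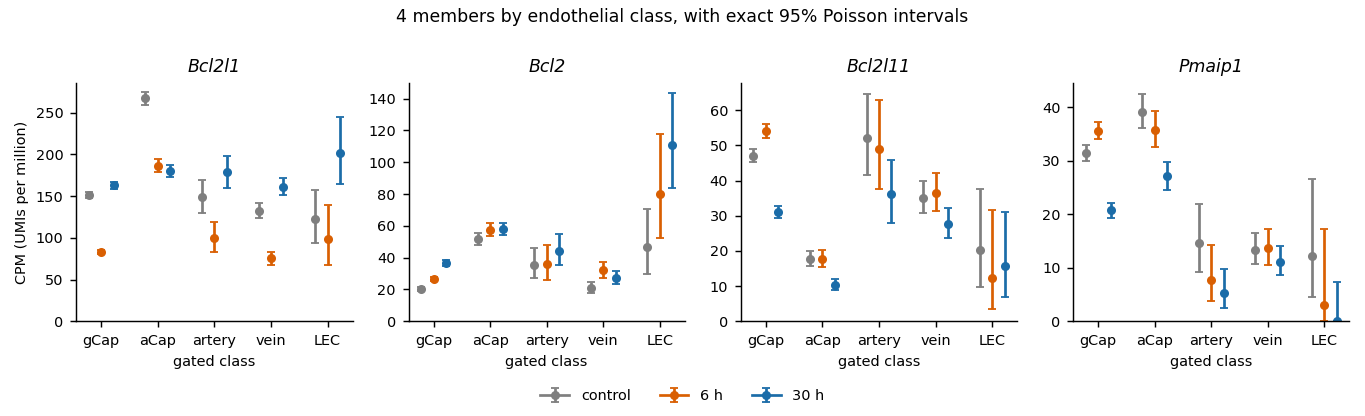
Level in CPM (vertical axes from 0) of Bcl2l1, Bcl2, Bcl2l11 and Pmaip1 in gCap, aCap, artery, vein and LEC barcodes of the control (grey), 6 h (orange) and 30 h (blue) libraries, with exact 95% Poisson intervals. All classes but gCap were gated at 10 UMIs. Bcl2l1 is lowest at 6 h in gCap, artery, vein and LEC points, Bcl2l11 is lower in aCap than in gCap points, and LEC points rest on 43 to 60 barcodes.

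Mcl1 was higher at 6 h in gCap-gated barcodes, with 333, 410 and 352 CPM and a log2 ratio to control of 0.30 (0.27 to 0.33). In aCap-gated barcodes it measured 415, 436 and 338 CPM, with a log2 ratio of 0.07 (-0.01 to 0.15) at 6 h and -0.30 (-0.37 to -0.22) at 30 h. Bax was higher in aCap-gated than in gCap-gated barcodes of each library (226, 255 and 248 CPM against 159, 179 and 187 CPM), and lower in artery-gated and vein-gated than in gCap-gated barcodes in 3 of 3 libraries each. Bad was likewise higher in aCap-gated barcodes (77.3, 83.8 and 62.9 CPM against 60.8, 57.7 and 50.7 CPM). Bcl2l2 measured 12.3, 20.8 and 20.7 CPM in aCap-gated barcodes, a log2 ratio of 0.76 to control at 6 h (0.34 to 1.18), which was 0.28 (0.01 to 0.54) with aCap barcodes gated at 10 UMIs.

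Summed over the anti-apoptotic genes, gCap-gated barcodes held 526, 541 and 577 CPM and aCap-gated barcodes 760, 708 and 596 CPM. At 6 h the log2 ratio to control was 0.04 in gCap-gated (0.02 to 0.06) and -0.10 in aCap-gated barcodes (-0.16 to -0.04). At 30 h the log2 ratio to control was 0.13 in gCap-gated (0.11 to 0.16) and -0.35 in aCap-gated barcodes (-0.41 to -0.29). The BH3-only sums at 30 h were lower in both, with log2 ratios of -0.33 (-0.38 to -0.28) and -0.37 (-0.49 to -0.25).

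**Figure D4:**
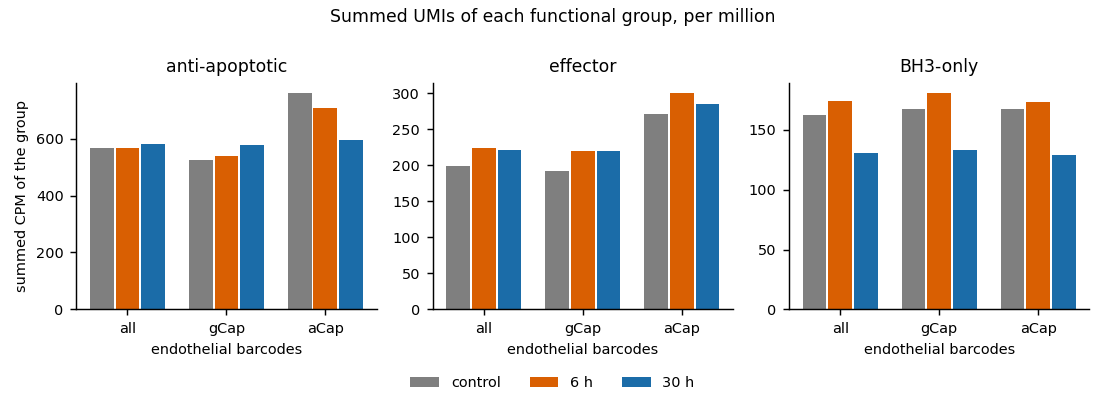
Summed CPM (bars from 0) of the 4 anti-apoptotic, 2 effector and 4 BH3-only genes in all endothelial, gCap-gated and aCap-gated barcodes of the control (grey), 6 h (orange) and 30 h (blue) libraries, 1 library per bar and no error shown. The anti-apoptotic sum in aCap-gated barcodes is 760 CPM for control and 596 CPM at 30 h, and the BH3-only sums are lowest at 30 h.

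The share of barcodes with a UMI gave the same order for Bcl2l1. After each gCap-gated barcode was thinned to 2000 UMIs, at least 1 Bcl2l1 UMI was found in 24.1% of 6833 control barcodes (exact Clopper-Pearson 95% interval 23.1 to 25.1), 15.1% of 6774 at 6 h (14.3 to 15.99) and 26.4% of 5131 at 30 h (25.2 to 27.6). If UMIs were spread evenly over barcodes, a Poisson count would give 25.7%, 15.3% and 27.2%, so the shares lay a little under those of an even spread in each library, and the 6 h share was low by either measure. Before thinning the shares were 56.4%, 41.8% and 62.9%, and thinning left out 126, 124 and 61 shallower barcodes. No class that should lack the gene was at hand, since Bcl2l1 UMIs were found in all 5 endothelial classes.

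Other cell types and free RNA were measured beside these results. The 5 platelet markers, which matter here because Bcl-xL sets the lifespan of platelets, were all detected, summed to 142, 173 and 143 CPM, and reached 3 UMIs in 6.99%, 8.63% and 9.66% of endothelial barcodes. In barcodes without any platelet marker UMI the Bcl2l1 levels were 172, 99.5 and 166 CPM, so its log2 ratio at 6 h was again -0.79 (-0.83 to -0.75). Of the 7 leukocyte markers all were detected, at 88.4, 134 and 67.7 CPM in sum, with Ptprc at 3.16, 4.95 and 6.53 CPM. Red cell markers summed to 3249, 2119 and 829 CPM and epithelial markers to 779, 576 and 362 CPM, both highest in the control library and lowest at 30 h. Empty droplets held Bcl2l1 at 133, 82.1 and 116 CPM, in the same order as the endothelial barcodes.

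Leukocyte barcodes, which were few (24, 47 and 41), held Mcl1 at 523 CPM in control (438 to 620), 1176 CPM at 6 h (1086 to 1272) and 483 CPM at 30 h (427 to 545). Without barcodes that held at least 3 UMIs of platelet, leukocyte, pericyte, fibroblast or melanoma markers, Bcl2l1 at 6 h had a log2 ratio of -0.81. That alternative was not planned beforehand, and it leaves red cell and epithelial markers out of the filter. In 16 melanoma barcodes of the 6 h library, Bcl2l1 measured 24.6 CPM (6.71 to 63.0), Bax 222 CPM (155 to 307), Mcl1 234 CPM (166 to 321) and Bcl2l11 73.8 CPM (38.2 to 129). Pmaip1 had no UMI in them, where 3 UMIs would equal 18.5 CPM. The same marker gate also passed 2 barcodes of the control library, whose mice received no melanoma cells, and 1 at 30 h.

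Lists of related genes were counted over all endothelial barcodes, where 6.56% of all tested genes were called higher and 5.88% lower at 6 h against control, and 12.2% higher and 19.1% lower at 30 h, with medians over all tested genes of -0.01 and -0.07. The genes upstream of Bad were taken from a list of 19 kinases, the phosphatase Ppp3ca and 14-3-3 genes, of which 17 passed the filter. At 6 h 4 were called higher and 1 lower, with a median log2 ratio of 0.16 on the CPM + 1 scale. Pim3, the kinase the study is about, measured 109, 156 and 88.2 CPM (log2 0.52 at 6 h and -0.30 at 30 h against control), and Pim1 measured 92.2, 119 and 45.5 CPM (0.37 and -1.02). Pim2 did not pass the filter, at 3.32, 3.56 and 2.37 CPM. The 14-3-3 genes Ywhag (0.44) and Ywhah (0.38) were also called higher at 6 h and Rps6ka1, which encodes Rsk1, lower (-0.39). At 30 h 1 was called higher (Ywhaq, 0.35) and 4 lower, among them Pim1, Rps6kb1 (-0.54) and Ppp3ca (-0.40), so 5 of 17 were called beside 31.3% of all tested genes, with a median of -0.23.

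Within gCap-gated barcodes thinned to 2000 UMIs, those with at least 2 UMIs of Pim3, Bcl3 and Tmem252 together were set beside those with 0. Mcl1 was higher in the former in each library, with log2 ratios of 0.37 in control (0.21 to 0.52), 0.41 (0.31 to 0.51) at 6 h and 0.28 (0.11 to 0.44) at 30 h. Bcl2l1 was lower in them at 6 h (-0.39, -0.66 to -0.13), and its intervals in the control and 30 h libraries included 0. In barcodes with 0 such UMIs Bcl2l1 was also lower at 6 h, at 151 CPM in control and 85.5 CPM at 6 h. Those with at least 2 held 131 and 65.1 CPM. Mcl1 was likewise higher at 6 h in barcodes with 0 such UMIs (309 and 362 CPM). The Bad intervals included 0 in all 3 libraries. Barcodes are not replicates, and these intervals cover counting error only.

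The p53 target list (14 genes, 13 passed) had 4 genes called higher and 2 lower at 6 h, with Aen (0.64) and Trp53inp1 (-0.61) at the extremes, and 0 higher and 6 lower at 30 h, with Gadd45a (-1.12), Gdf15 (-1.12), Trp53inp1 (64.7 CPM in the control library and 32.3 CPM at 30 h) and Sesn2 (-0.59). Its median was 0.11 at 6 h and -0.30 at 30 h, where Pmaip1 was lower too while Bbc3 had 0.09. The p53 list had 6 of 13 genes called at each time, beside 12.4% and 31.3% of all tested genes. Among the Foxo and stress regulators (9 genes, 6 passed) Ddit3 (0.37) and Atf4 (0.33) were called higher and Foxo3 (-0.37) lower at 6 h, and Foxo3 (-0.39) and Jun (-0.43) lower at 30 h, with medians of -0.06 and -0.29. Of the 7 genes for Mcl1 turnover 5 passed, 0 were called at 6 h and 1, the co-chaperone gene Bag3 (-0.64), was called lower at 30 h, with medians of 0.03 and -0.29.

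Of 15 other Bcl2 family genes 6 passed. Bnip3, a mitophagy receptor, was called lower at both times (-0.85 and -0.75), and Bid, which links death receptors to mitochondria, at 30 h (-0.45), with list medians of -0.07 and -0.18. All 14 genes of the caspase machinery passed. Cycs, which encodes cytochrome c, was called higher at 6 h (0.39), and 2 genes, among them Apaf1 (-0.50), were called lower at 30 h, with medians of -0.01 and -0.04. Among the inhibitors (6 of 8 passed) Xiap was called higher at both times (0.34 and 0.42), Tnfaip3 at 6 h (0.97), and Birc3 (-0.64), Birc2 (-0.44) and Birc6 (-0.33) lower at 30 h, with medians of 0.21 and -0.19. In the list of death receptors and related genes (7 of 8 passed) Tnfrsf12a (1.06), Tnfrsf10b (0.49) and Ripk1 (0.33) were called higher and Fas (-0.52) lower at 6 h. At 30 h Fadd (0.56) and Tnfrsf10b (0.43) were called higher and Ripk1 (-0.49) and Tnfrsf1a (-0.44) lower, and the medians were 0.27 and -0.04.

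Heat shock and immediate early genes were measured as signs of stress. All 10 heat shock genes were called higher at 6 h over all endothelial barcodes, led by Hspa1b (2.69) and Hspa1a (2.34), with a median of 0.99, and at 30 h 5 were higher and 2 lower, with a median of 0.31. Of the immediate early genes 14 of 15 passed, and 11 were called higher at 6 h, led by Atf3 (1.61), with a median of 0.53, and 1 higher and 9 lower at 30 h, with a median of -0.45. In aCap-gated barcodes at 6 h 9 of 10 heat shock genes but 1 of 14 immediate early genes were called higher, with medians of 0.84 and 0.003, against 10 and 12 genes and medians of 1.14 and 0.63 in gCap-gated barcodes. Over all tested genes 8.81% were called higher at 6 h in aCap-gated and 7.74% in gCap-gated barcodes. The lungs were digested warm before sorting, and the part of the digestion in the levels of Bcl2l1 and Mcl1 was not tested.

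**Figure D5:**
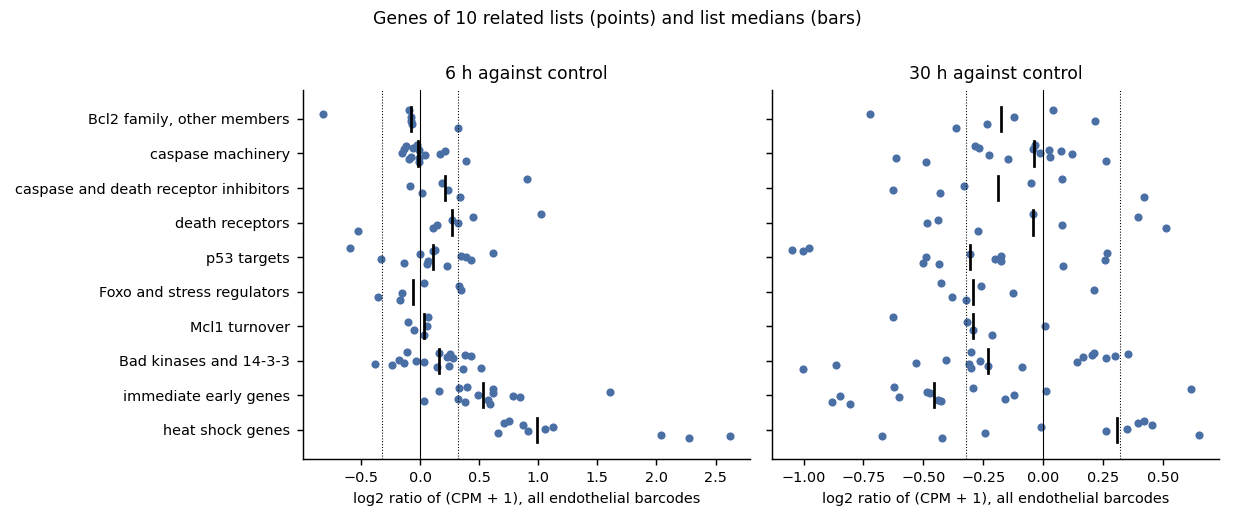
Log2 ratio of (CPM + 1) over all endothelial barcodes (horizontal axes) for the genes that passed the filter in 10 related lists (points, 1 per gene), for 6 h and 30 h against control, with list medians as black bars and dotted lines at the call. At 6 h all heat shock points lie right of the line, and at 30 h the immediate early median lies at -0.45.

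For each member the genes of most similar pattern were found over 12 sums (3 libraries by 4 classes, which share libraries), where it had a mean of at least 20 CPM, which left out Bcl2l2. Likeness was given by Pearson's r of log2(CPM + 1) among 7014 genes and is a description. Nearest to Bcl2l1 were Lgalsl (r = 0.89), Abhd4 (0.88) and Snrk (0.87), and nearest to Mcl1 were Cebpb (0.94), Eif1a (0.92) and Ube2g2 (0.92). Nearest to Bcl2 were Ptpre (0.94), Shisa5 (0.94) and Rnf145 (0.92). Bcl2l11 was nearest to Diaph1 (0.98), Lama5 (0.98) and Chd7 (0.98), and Pmaip1 to Pdrg1 (0.97), Aff3 (0.95) and Siah1a (0.95). For Bax, Bak1, Bbc3 and Bad the first genes were Cops8 (0.98), Strap (0.98), Wdr74 (0.94) and Copb1 (0.97).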

How the data were processed

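Endothelial cells of 3 droplet libraries, 1 per group, were analysed. The deposited files hold counts of UMIs for every gene and barcode, made by the authors with Cell Ranger 7.2.0 per the file headers, against mm10 per the submitters' processing notes, which also name Seurat 4.4.0. The study's methods name an earlier Cell Ranger version. The matrices hold all barcodes, empty droplets included. The labels give 2 mice per treatment, whereas the study's methods give 3 per sample for the experiment with a 30 h library, and which holds was not settled here.

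The members and lists were chosen with earlier results of these data known. Barcodes were filtered as in the report, doublets were kept in the main setting (an alternative took out the highest Scrublet scores, scanpy 1.11.5), and the UMIs of a class were summed within each library and scaled to CPM. No test was possible with 1 library per group. Intervals are exact (scipy 1.17.1) at 95%. The difference of log2 ratios between classes has a normal interval built from the counts. Ccl21a and Ddit3 have 2 IDs each, which were summed. Empty droplets are barcodes with 10 to 100 UMIs. The free RNA share was estimated from 1 set of epithelial genes (Sftpc, Sftpb, Scgb1a1 and Ager), and it may depend on that set. Named list genes are those with the largest log2 ratios, up to 4 per list and comparison, plus the Pim genes. Other called list genes were named after their values were seen. The values of 2 list genes are not reported here. Positions are from GENCODE M21, which held 99.6% of the gene IDs, and all 10 members matched. The ratio script was checked on simulated counts.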

Additional observations from a re-analysis of the deposited data

Results flagged for a closer look

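Bcl2 was higher in the empty droplets of the 30 h library than in those of the control library, at 28.8 CPM (22.7 to 36.1) against 12.5 CPM (6.26 to 22.4), with 21.6 CPM at 6 h (12.1 to 35.6). It is listed here because empty droplets lie outside the main measurement and the 30 h value stands above the control. The log2 ratio was 1.20 (0.28 to 2.26), in the same direction as in the endothelial barcodes (0.57), and its cause was not tested.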

How the results depend on the processing

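No paired analysis was possible because each group has 1 library. Bcl2l1 was lower at 6 h than in control under all 13 alternatives, with log2 ratios from -0.97 to -0.76. It was -0.97 without barcodes with RNA of any non-endothelial class, which left 194 control, 1124 6 h and 6162 30 h barcodes since red cell markers reached 3 UMIs in 96.7%, 85.9% and 14.9% of endothelial barcodes and epithelial markers in 47.7%, 17.7% and 11.1%, and -0.86 in gCap-gated barcodes alone, an alternative chosen after seeing the data. Under these 2 settings 2 members were called at 6 h, with Bcl2 added. In gCap-gated barcodes 14.4% of tested genes were called too. Without any non-endothelial RNA the share of all genes called was not measured, so the Bcl2 call there is not read as a result. In gCap-gated barcodes without any non-endothelial RNA, 121 control barcodes remained. There the Bax log2 ratio to control was 0.51 at 6 h and 0.59 at 30 h. Those of Pmaip1 and Bcl2l11 at 6 h were 0.40 and 0.34. At 30 h against 6 h 5 members were called in gCap-gated barcodes alone, with Bcl2 and Bak1 added, beside 29.6% of tested genes. At a call of 1.5-fold 1 member, Bcl2l11, was called at 30 h against control, beside 8.63% of tested genes. Of 390 log2 ratios of single members over all endothelial barcodes 334 stayed within their counting interval and 56 left it, and of 240 by class 224 and 16. The sign differed in 11 and 9 of them, none a called ratio, 5 and 2 of these without any non-endothelial RNA, where Bbc3 was -0.06 at 6 h and -0.21 at 30 h against control. The aCap ratios without any non-endothelial RNA were not run, since 14 control barcodes remained. Counting error alone sets the intervals, and differences between mice cannot be told apart from differences between groups.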
